A study of Mus musculus with 12 samples.

Results

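Epiblast stem cells (EpiSC) were compared with embryonic stem cells (ESCs) sorted for high expression of an Esrrb reporter (EsrrbHi). The comparison rested on 6 of the 12 arrays of the series, 3 for each group, taken by their labels. Messenger RNA was measured on Illumina MouseWG-6 v2 BeadChips, on which each probe is read as the brightness of beads that carry it. The EsrrbHi cells were E14Tg2a Esrrb-2a-GFPd-IBIH ESCs, in which a destabilized GFP follows the coding sequence of both Esrrb alleles. They were grown in GMEM with serum and LIF, plated at 3000 cells per cm2, harvested after 3 days and sorted as SSEA-1 positive, GFP high cells. The EpiSC were the line TNG Esrrb-2a-TdTomato, grown in N2B27 with activin and FGF. They were derived from late bud stage embryos, carry GFP in 1 of the 2 Nanog alleles and a tdTomato reporter at Esrrb, and no reporter gate is given for them. Line, origin, reporter, medium, number of intact Nanog alleles and sorting therefore all differed between the groups and cannot be told apart. ESCs of the EsrrbHi line sorted as GFP negative (EsrrbNeg, 3 arrays) were used to show where EpiSC differed from ESCs that had lost Esrrb under serum and LIF, and GFP medium ESCs (EsrrbMed, 3 arrays) entered the estimate of the chip effect.

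Mouse pluripotent cells are kept in culture in a pair of states. Naive cells resemble the epiblast before implantation, depend on LIF acting through STAT3, and express a network of transcription factors that includes Esrrb, Klf2, Klf4, Tfcp2l1 and Nanog on top of the shared factors Pou5f1 (OCT4) and Sox2. Primed cells resemble the epiblast after implantation, are maintained by activin and FGF, keep Pou5f1 and Sox2, and express genes such as Fgf5, Otx2 and Pou3f1, in EpiSC often together with early primitive streak genes.

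The 12 arrays lay on 2 chips. All 3 EpiSC arrays and EsrrbHi replicate 3 lay on chip 2, and EsrrbHi replicates 1 and 2 on chip 1. The chip effect was therefore estimated from the 9 ESC arrays and taken out of every difference given here. Detected probes numbered 13333 to 15393 per array. Normalized values correlated at 0.989 to 0.995 among EsrrbHi arrays, at 0.991 to 0.992 among EpiSC arrays and at 0.901 to 0.916 between the groups. Where not said otherwise, values are normalized log2 intensities per array in the order of replicates 1, 2 and 3, and a difference is the log2 fold change of EpiSC minus EsrrbHi ± its standard error from limma, n = 3 per group. Array values hold the chip effect and differences do not, so a difference need not equal that of the array means. A gene was called when its adjusted p was at most 0.05 and its change at least 1.5-fold, and only called genes are said to have risen or fallen. Where a gene was undetected on every array of a group, its change is given as a lower bound against the detection limit of those arrays.

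Of 11089 genes and unnamed probes tested, 3707 (33.4%) were called, 2053 higher (18.5%) and 1654 lower (14.9%) in EpiSC. Every count for a gene list below is to be read beside these shares. Changes of more than 4-fold numbered 201 in each direction, and changes of more than 16-fold numbered 8 higher and 17 lower. Undetected on every EsrrbHi array were 385 of the genes called higher, and undetected on every EpiSC array were 273 of those called lower. The median difference over everything tested was 0.01. The 6 arrays did not overlap for 3639 of the 3707 called, against 64.9% of everything tested. On chip 2 alone, where the EpiSC arrays were set against EsrrbHi replicate 3, all 3707 kept their direction and 3517 still differed by at least 1.5-fold. The same arrays had entered the fit that called these genes, so a kept direction was largely built in. These are bulk samples, in which fewer cells of a kind and less RNA per cell cannot be told apart.

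**Figure D1:**
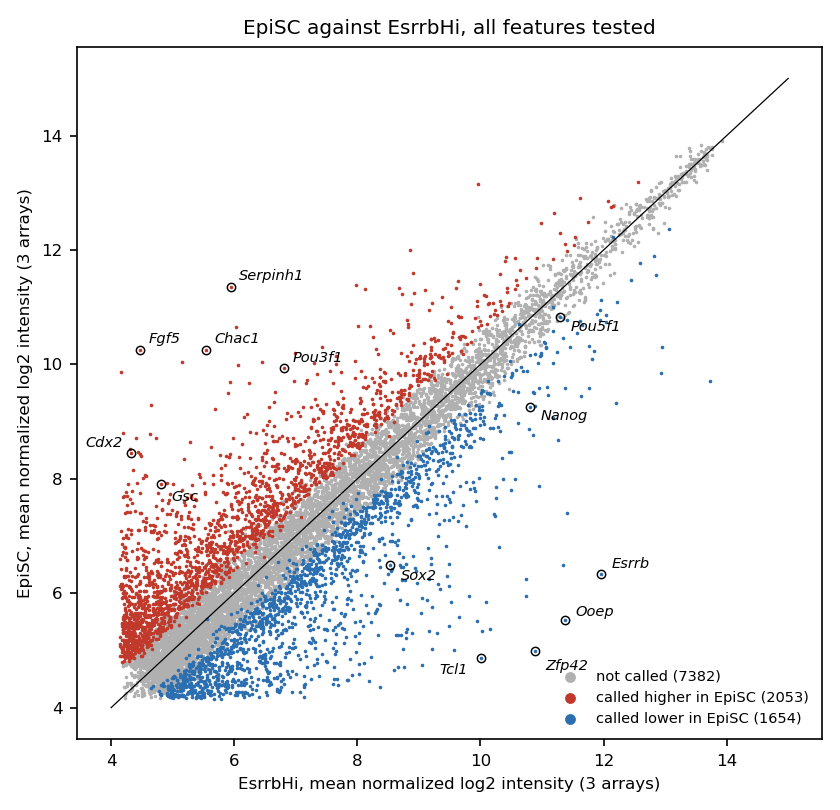
Mean normalized log2 intensity of each gene or unnamed probe over the 3 EsrrbHi arrays (horizontal axis) and the 3 EpiSC arrays (vertical axis), with the line of equal values. Red points were called higher in EpiSC (2053), blue points lower (1654) and grey points were not called (7382), and circled genes are named. Esrrb, Zfp42, Tcl1 and Ooep lie far below the line, Fgf5, Serpinh1 and Chac1 far above it, and Pou5f1 close to it.

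Promoter stretches are shown for genes that stand for the main groups below, those of the naive and core factors Zfp42, Nanog and Sox2, which fell, and of the stress gene Chac1 and the interferon-inducible genes Gbp2 and Bst2, which rose. They are RefSeq sequences of GRCm38.p6, read 5′ to 3′ on the strand of the gene and ending at or before its start site. Capitals in the first set mark TTTGCAT (on either strand), letters of the octamer that POU factors such as Pou5f1 bind. Of 8884 promoters of 300 bases that belong to tested genes, 306 (3.44%) hold it. The Zfp42 stretch lies at chr8:43307143-43307239 on the minus strand with its match 185 bases before the start, the Nanog stretch at chr6:122707369-122707465 on the plus strand, 151 and 75 bases before its 2 annotated starts, and the Sox2 stretch at chr3:34649851-34649947 on the plus strand, 99 bases before the start.
Zfp42: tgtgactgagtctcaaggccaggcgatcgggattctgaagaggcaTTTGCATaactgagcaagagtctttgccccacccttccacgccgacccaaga
Nanog: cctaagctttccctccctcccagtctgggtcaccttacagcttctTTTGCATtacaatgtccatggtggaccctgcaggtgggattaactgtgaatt
Sox2: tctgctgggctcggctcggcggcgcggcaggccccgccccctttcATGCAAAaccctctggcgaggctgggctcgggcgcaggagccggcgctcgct

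Capitals in the second set mark TGATGNAA on either strand, the letters of the amino acid response element bound by ATF4, in Chac1 (chr2:119351004-119351101, plus strand, 193 bases before the start), and GAAA, 2 bases of any kind and GAAA again on either strand, the core of the interferon-stimulated response element, in Gbp2 (chr3:142620559-142620658, plus strand, 59 bases before the start) and Bst2 (chr8:71537542-71537647, minus strand, 2 overlapping matches, the first 130 bases before the start). The first of these motifs is held by 195 (2.19%) and the second by 252 (2.84%) of the 8884 promoters. Counted by gene in place of promoter, the octamer letters were held by 4.14% of all genes, 5.22% of those called higher and 4.62% of those called lower. In the same order the ATF4 element letters were held by 2.65%, 2.76% and 3.51%, and the interferon element letters by 3.51%, 4.10% and 3.82%. A match is a description of the letters and not of binding in these cells.
Chac1: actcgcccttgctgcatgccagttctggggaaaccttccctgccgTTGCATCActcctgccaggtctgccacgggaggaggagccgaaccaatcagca
Gbp2: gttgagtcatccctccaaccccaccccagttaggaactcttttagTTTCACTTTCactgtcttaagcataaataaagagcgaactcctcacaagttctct
Bst2: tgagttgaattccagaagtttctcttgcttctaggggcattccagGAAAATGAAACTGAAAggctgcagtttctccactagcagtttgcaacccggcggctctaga

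Naive pluripotency genes made up much of the bottom of the comparison. Of 24 listed, 19 were measured and 18 fell, none rose, and the median difference was −2.81, against 0.01 over everything tested. Gbx2, named after its values were seen, was the member not called. The list was chosen with results of these data known, as were all lists here. Undetected on every EsrrbHi or every EpiSC array were 3 of the 19. Esrrb, the reporter gene and an orphan nuclear receptor of the naive network, read 12.04, 12.10 and 11.73 in EsrrbHi and 6.552, 5.998 and 6.433 in EpiSC. It fell by 5.53 ± 0.16 (adjusted p = 6.82e-11), and since the EsrrbHi cells were sorted on its reporter, its level there follows from the gate. Esrrb was still detected on all 3 EpiSC arrays and lay above EsrrbNeg, where it read 5.80, 5.61 and 5.50 (EpiSC minus EsrrbNeg 0.79, adjusted p = 0.00137). The EsrrbNeg cells were sorted as negative for the same reporter, so their level, and with it this difference, follows in part from the gate.

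Zfp42 (Rex1), a zinc finger protein used as the standard marker of naive cells, read 10.91, 10.96 and 10.79 in EsrrbHi and 5.26, 4.96 and 4.76 in EpiSC, a fall of 5.72 ± 0.17 on the log2 scale (52.8-fold, adjusted p = 6.96e-11). Tcl1, a coactivator of the kinase AKT, read 10.04, 9.94 and 10.04 against 5.03, 4.81 and 4.78 and fell by 5.27 ± 0.11 (adjusted p = 7.51e-12). Tfcp2l1, a naive transcription factor downstream of LIF, read 10.07, 10.05 and 9.95 against 5.36, 5.27 and 5.38 and fell by 4.71 ± 0.15 (adjusted p = 1.02e-10). For each of these genes the groups were many times further apart than the arrays within them. Fbxo15, an F-box protein gene marking undifferentiated ESCs, fell from 11.32 to 11.36 in EsrrbHi to 6.05 to 6.84 in EpiSC (adjusted p = 5.51e-09).

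EpiSC also lay below EsrrbNeg for most of these genes. Zfp42 read 7.54, 7.48 and 6.84 in EsrrbNeg and was lower again by 2.12 in EpiSC (adjusted p = 2.41e-06), and Fbxo15 (−2.17), Tcl1 (−1.32) and Tfcp2l1 (−0.82) were also called lower than in EsrrbNeg. Over the naive list 10 members were called lower and 2 higher in EpiSC than in EsrrbNeg, where 8.96% of everything tested was called lower and 12.1% higher. Dppa3 (Stella), a maternal factor that shields methylation imprints and marks naive cells, fell by 3.84 ± 0.14 against EsrrbHi (adjusted p = 4.29e-10) and by 2.21 against EsrrbNeg (adjusted p = 4.61e-07).

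Krüppel-like factors, transcription factors that can hold the naive state, were uneven among the EpiSC arrays. Klf4 read 7.91, 7.65 and 7.78 in EsrrbHi and 5.48, 6.23 and 5.09 in EpiSC and fell by 2.39 ± 0.28 (adjusted p = 8.33e-06). Klf2 read 10.43, 10.59 and 10.45 in EsrrbHi and 7.34, 9.42 and 6.65 in EpiSC and fell by 2.66 ± 0.54 (adjusted p = 0.000928). EpiSC replicate 2 stood above the other EpiSC arrays for both, and also for the oocyte gene Ooep (6.78, against 5.05 and 4.76). The widest spread on the list was that of Dppa5a, an RNA-binding protein gene of ESCs named after its values were seen, at 8.85, 11.95 and 8.36 in EpiSC and 13.70 to 13.77 in EsrrbHi. For Zfp42, Tfcp2l1 and Tcl1, in contrast, replicate 2 lay between or beside the others. Klf5, another factor of the family, fell by 1.73 ± 0.16 (adjusted p = 1.25e-06). Without EpiSC replicate 2, 18 naive genes still fell and their median was −2.87.

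The factors shared by both states moved less. Pou5f1, the POU factor required for any pluripotent state, read 11.18, 11.24 and 11.47 in EsrrbHi and 10.72, 10.91 and 10.88 in EpiSC. Its difference of −0.61 ± 0.12 (adjusted p = 0.000974) lay just past the 1.5-fold threshold. The call was lost without EsrrbHi replicate 3 (−0.58), EsrrbMed replicate 3 (−0.58), EsrrbNeg replicate 1 (−0.58) or EpiSC replicate 1 (−0.55), and its other probe gave −0.57 and was not called.

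Sox2, the partner of Pou5f1, read 8.53, 8.70 and 8.37 against 6.53, 6.82 and 6.10 and fell by 1.82 ± 0.21 (adjusted p = 6.61e-06), while its other, dimmer probe fell by 0.61. In EpiSC Sox2 also lay below EsrrbNeg, by 1.21 (adjusted p = 0.000482). Nanog, the homeobox factor that stabilizes the naive network, read 10.97, 10.44 and 10.99 against 9.41, 9.33 and 9.01 and fell by 1.88 ± 0.19 (adjusted p = 2.78e-06), with −2.72 at its other probe. Nanog in EpiSC stood 0.72 above EsrrbNeg (adjusted p = 0.00850). In the EpiSC a reporter occupies 1 Nanog allele, and that difference between the lines cannot be told apart from the others.

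Over the shared list 13 of 15 genes were measured, 9 fell, 1 rose and the median was −0.77. Dppa4 and Dppa2, related chromatin proteins of early embryos, fell by 2.74 ± 0.33 (adjusted p = 1.26e-05) and 1.85 ± 0.19 (adjusted p = 2.40e-06). Dppa4 was spread widely in EpiSC, at 10.01, 9.64 and 8.35, all below the 12.12 to 12.30 of EsrrbHi. Rif1, a replication timing factor, fell by 1.36 ± 0.31 (adjusted p = 0.00201) and Zscan10, a zinc finger factor, by 0.97 ± 0.15 (adjusted p = 0.000112). The pluripotency markers Sall4 and Utf1 gave −0.45 and −0.30 and were not called.

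**Figure D2:**
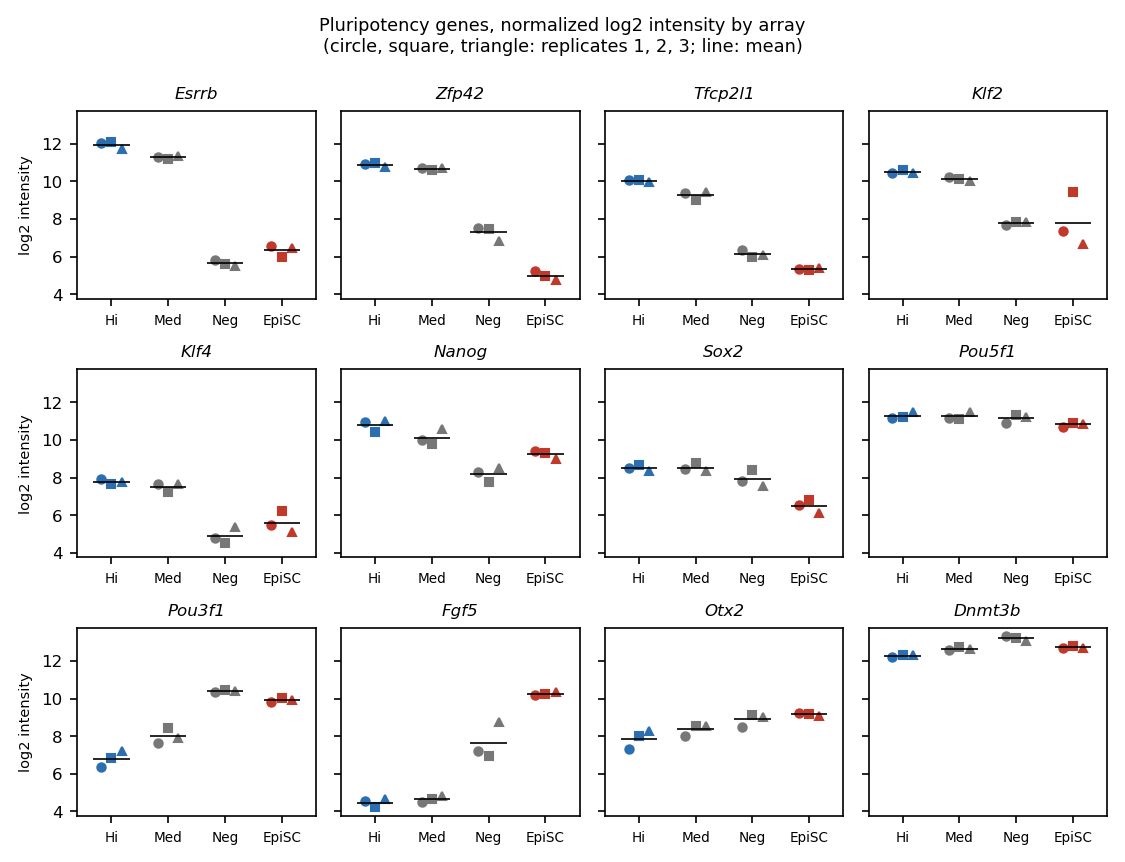
Normalized log2 intensity (vertical axes, shared scale) of 12 pluripotency genes on every array of the 4 groups, with EsrrbHi in blue, EpiSC in red and the other ESC groups in grey. Symbols mark replicates 1, 2 and 3 and lines the group means of 3 arrays. Esrrb, Zfp42 and Tfcp2l1 are low in EpiSC, Klf2 is uneven there (6.65 to 9.42), Pou5f1 differs little, and Fgf5 is highest in EpiSC.

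Primed epiblast genes rose. Of 21 listed, 18 were measured, 13 rose, none fell and the median was 1.49. Undetected on every EsrrbHi or every EpiSC array were 6 of the 18. Fgf5, the FGF ligand that marks the epiblast after implantation, read 4.54, 4.22 and 4.65 in EsrrbHi, undetected on all 3, and 10.17, 10.23 and 10.38 in EpiSC. It was at least 29.3-fold higher (5.31 ± 0.28, adjusted p = 8.36e-09), the largest rise among named genes. Pou3f1 (Oct6), a POU factor of the primed epiblast, read 6.38, 6.84 and 7.21 against 9.83, 10.05 and 9.92 and rose by 3.03 ± 0.23 (adjusted p = 1.99e-07).

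The primed genes did not all stand at EsrrbNeg levels. Fgf5 read 7.21, 6.95 and 8.76 in EsrrbNeg and was 2.14 higher in EpiSC (adjusted p = 7.41e-05), whereas Pou3f1 read 10.36, 10.44 and 10.38 there and differed by −0.55 (adjusted p = 0.0690). Otx2, the homeobox factor that redirects OCT4 in primed cells, read 7.34, 7.99 and 8.30 in EsrrbHi and 9.21, 9.21 and 9.08 in EpiSC, rose by 1.04 ± 0.22 (adjusted p = 0.00140) and differed from EsrrbNeg by 0.02. Zic2 rose by 1.12 ± 0.16 (adjusted p = 6.15e-05). Dnmt3b, the de novo DNA methyltransferase often used as a primed marker, gave 0.49 ± 0.11 and was not called.

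Other primed genes of the list were low or absent in EsrrbHi. Wnt8a, a Wnt ligand of the posterior epiblast, read 4.17 to 4.24 in EsrrbHi, undetected, and 7.56, 7.41 and 8.12 in EpiSC, at least 6.44-fold higher (3.26 ± 0.26, adjusted p = 2.87e-07). Fgf8, the ligand needed for cells to leave the primitive streak, read 4.18 to 4.34, undetected, and 8.36, 7.48 and 7.90 in EpiSC, at least 6.33-fold higher (3.24 ± 0.36, adjusted p = 5.72e-06). Car14, a carbonic anhydrase, rose by 2.62 ± 0.21 (adjusted p = 2.87e-07). The arrays of the groups did not overlap for any of the 3.

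Early primitive streak and mesendoderm genes were higher in EpiSC where they were detected. Of 24 listed, 9 were measured and all 9 rose, with a median of 2.24. However, 5 of them were undetected on every EsrrbHi array and 13 others were below detection. Over all members with a probe, detected or not, the median was 0.55. Cdx2, a caudal factor of the posterior embryo and of trophectoderm, read 4.35, 4.14 and 4.48 in EsrrbHi, undetected, and 7.85, 8.73 and 8.74 in EpiSC, at least 9.59-fold higher (3.78 ± 0.34, adjusted p = 7.85e-07). Gsc (goosecoid), a homeobox factor of the anterior streak, read 5.10, 4.74 and 4.59 against 8.03, 7.92 and 7.79 and rose by 2.78 ± 0.35 (adjusted p = 1.51e-05).

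Eomes, a T-box factor of streak and trophoblast, read 4.30, 4.14 and 4.12, undetected, against 6.503, 7.259 and 7.139, at least 3.77-fold higher (2.52 ± 0.30, adjusted p = 9.99e-06). Sp5, a Wnt-responsive zinc finger factor, read 5.98, 6.07 and 5.50 against 7.64, 9.17 and 7.93 and rose by 2.24 ± 0.42 (adjusted p = 0.000540), with EpiSC replicate 2 the highest. The trophoblast factor Elf5 and the mesendoderm factor Mixl1 were undetected on every EsrrbHi and EpiSC array.

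The measured streak genes were also higher in EpiSC than in EsrrbNeg. All 9 were called higher, where 12.1% of everything tested was called higher, with a median of 1.91. Eomes, Gsc and Fgf8 passed the detection filter through EpiSC alone and were detected on 1, 2 and 1 EsrrbNeg arrays. So did Lhx1, Nkx1-2 and Cyp26a1, named after their values were seen and detected on 1, 0 and 0 EsrrbNeg arrays. For such genes a higher level in EpiSC was largely fixed by the filter, and members below detection are not in this count. Gsc was 2.41 above EsrrbNeg (adjusted p = 0.000144), Fgf8 2.59 (adjusted p = 0.000120) and Cdx2 2.59 (adjusted p = 7.45e-05). EsrrbNeg replicate 3, on chip 2, stood above the other EsrrbNeg arrays for them. Gsc read 6.31 there against 4.50 and 4.73, Fgf8 6.11 against 4.48 and 4.22, and Eomes 5.67 against 4.42 and 4.29. That array raised the estimated chip effect of these genes and so lowered their differences from EsrrbHi. Without it the median of the list was 2.59, and on chip 2 alone 2.75, in place of 2.24. Without EsrrbHi replicate 3 it was 1.77 with 7 called, and without EpiSC replicate 2 it was 1.78 with 9 called.

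Some Hox and axis genes rose with the streak genes. Of 17 Hox and axis genes 6 were measured, 5 rose and none fell, with a median of 1.73, and 4 were undetected on every EsrrbHi array. Members such as Hoxb6, Hoxb8, Hoxb9, Cdx1 and Cdx4 were below detection. Over all members with a probe, detected or not, the median was 0.43. Hoxc9, a posterior Hox gene, read 4.20 to 4.24 in EsrrbHi, undetected, and 7.52, 7.10 and 7.58 in EpiSC, at least 4.64-fold higher (2.83 ± 0.27, adjusted p = 1.47e-06). Hoxa5, undetected in EsrrbHi at 4.15 to 4.27, read 6.002, 6.227 and 6.662 and was at least 2.53-fold higher (1.90 ± 0.20, adjusted p = 4.20e-06). Cdx2, described above, is on this list too. Hoxb2, also undetected in EsrrbHi, was at least 2.52-fold higher (1.47 ± 0.15, adjusted p = 2.92e-06), and the TALE cofactor Meis2 rose by 1.57 ± 0.18 (adjusted p = 8.86e-06). All 5 were called higher than in EsrrbNeg too. Of these, Hoxc9, Hoxa5 and Hoxb2 were detected on only 1, 1 and 2 EsrrbNeg arrays, so that this was partly fixed by the filter.

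**Figure D3:**
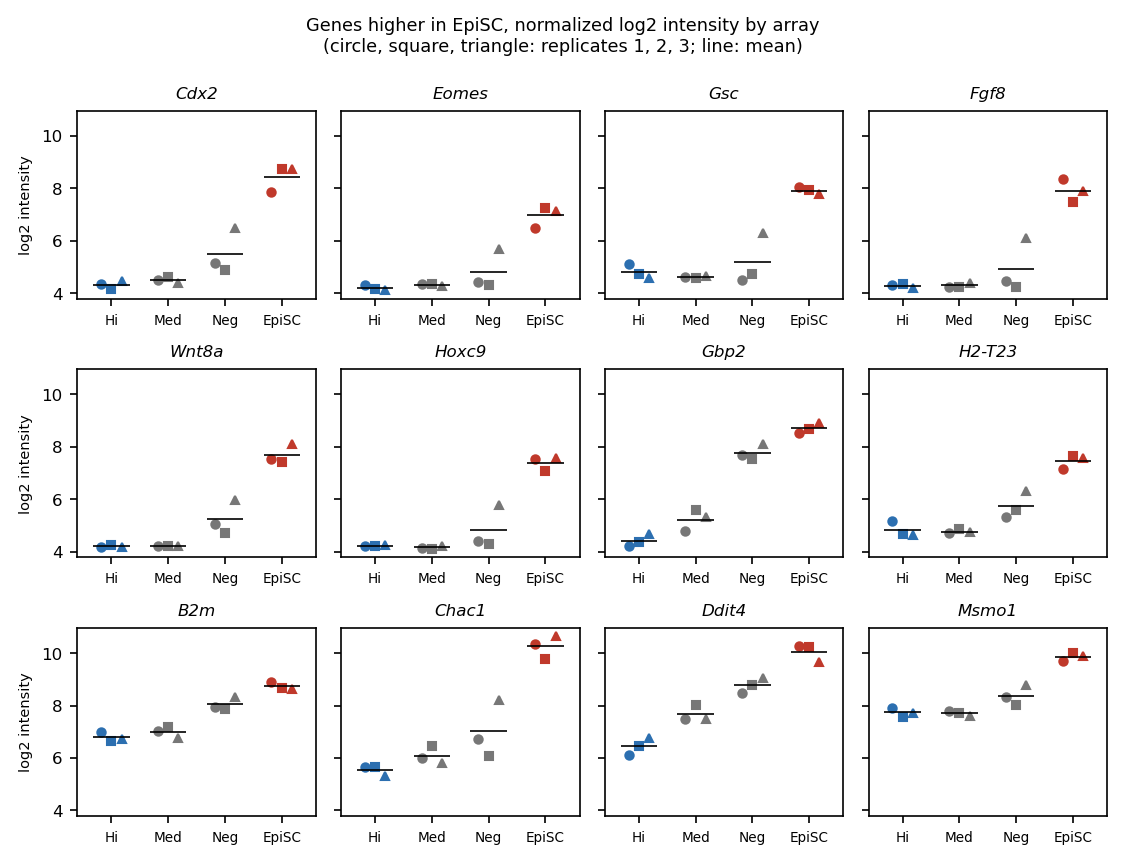
Normalized log2 intensity (vertical axes, shared scale) of 12 genes that rose in EpiSC, on every array of the 4 groups, with EsrrbHi in blue, EpiSC in red, other ESC groups in grey, symbols for replicates 1, 2 and 3 and lines for means of 3 arrays. The EpiSC arrays lie above all ESC arrays in every panel, and the triangle of EsrrbNeg (replicate 3) lies above its group for streak and posterior genes such as Gsc (6.31) and Hoxc9 (5.79).

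Markers of other cell types were read on the same arrays. The neural factors Sox1 and Pax6 and the primitive endoderm factors Gata4 and Sox17 were undetected on every EsrrbHi and EpiSC array, and Gata6 was detected on 2 EpiSC arrays and on no EsrrbHi array. The summed linear level of 3 trophectoderm markers ran from 62.6 to 74.8 in EsrrbHi and from 277 to 475 in EpiSC, where Cdx2 was detected, Gata3 on 1 array and Elf5 on none. Among 7 fibroblast markers, 3 were detected on all EpiSC arrays and 1 on all EsrrbHi arrays, and their summed linear level ran from 140 to 152 in EsrrbHi and from 218 to 331 in EpiSC. Of the defining collagens, Col1a1 read 4.18 to 4.32 in EsrrbHi and 5.46, 4.99 and 4.97 in EpiSC. Col3a1 read 4.166 to 4.175 in EsrrbHi, undetected, and 5.20, 4.41 and 4.69 in EpiSC, detected on 1 array. The marker Lum was likewise detected on 1 EpiSC array and no EsrrbHi array, and Col1a2 and Postn were undetected in both groups. EpiSC replicate 1 read highest for the proteoglycan gene Dcn (6.45, against 5.24 and 5.13) and for the smooth muscle actin gene Acta2 (11.53, against 9.78 and 9.62).

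On the longer fibroblast list 8 of 18 genes were measured, 6 rose, 1 fell and the median was 1.09, or 0.75 without EpiSC replicate 1 and 0.29 over all members with a probe. Acta2 rose by 2.60 ± 0.42 (adjusted p = 0.000149), Vim, an intermediate filament that ESC derivatives also express, by 1.77 ± 0.20 (adjusted p = 5.88e-06) and the surface protein gene Thy1 by 1.34 ± 0.17 (adjusted p = 2.20e-05). Fn1 (fibronectin) fell by 1.43 ± 0.16 (adjusted p = 6.39e-06). Dcn, undetected in EsrrbHi, was at least 1.70-fold higher (1.14 ± 0.32, adjusted p = 0.00851) and lost its call without EsrrbHi replicate 3 (1.16). The part of such cells in any result here was not tested.

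Lists of extraembryonic genes were mixed. Of 8 extraembryonic endoderm genes measured, 4 rose and 2 fell. The rises numbered 2 without EsrrbHi replicate 3, 1 when the background offset was 50 in place of 16, and 0 with quantile normalization alone or the deposited log2 values, while the falls numbered 2 in each. The 2 that fell were laminin subunits, Lama1 (−3.53 ± 0.15, adjusted p = 1.52e-09) and Lamc1 (−0.97 ± 0.12, adjusted p = 2.05e-05). Col4a2, a basement membrane collagen, rose by 1.33 ± 0.23 (adjusted p = 0.000245). Dab2, an endocytic adaptor, rose by 0.97 ± 0.19 (adjusted p = 0.000657) and Foxa1 by 0.82 ± 0.25 (adjusted p = 0.0120), the latter no longer called without EsrrbHi replicate 3 (0.72). Of 10 trophectoderm genes 5 rose and 1 fell. Besides Cdx2 and Eomes the risen members included the simple epithelial keratins Krt8 (2.62 ± 0.16, adjusted p = 3.62e-08) and Krt18 (2.23 ± 0.14, adjusted p = 2.84e-08), and Tfap2c, an AP-2 factor, fell by 1.07 ± 0.16 (adjusted p = 0.000100).

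Outside these lists, the other leading genes had varied roles. Serpinh1 (HSP47), the chaperone of collagen folding, read 5.88, 5.76 and 6.19 in EsrrbHi and 11.54, 11.25 and 11.29 in EpiSC and rose by 5.25 ± 0.16 (38.0-fold, adjusted p = 6.96e-11). Prickle1, a planar cell polarity protein, read 4.49, 4.57 and 4.89 against 9.14, 9.83 and 8.87 and rose by 4.38 ± 0.25 (adjusted p = 1.62e-08). Pkdcc, a secreted kinase, read 4.19 to 4.20 in EsrrbHi, undetected, and 8.83, 8.58 and 9.01 in EpiSC, at least 10.8-fold higher (4.14 ± 0.37, adjusted p = 7.91e-07). Lor (loricrin), a skin barrier protein, was the least even, at 7.52, 9.02 and 9.83 in EpiSC against 4.58 to 4.69 in EsrrbHi (3.97 ± 0.49, adjusted p = 1.41e-05).

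Tdrkh, a Tudor domain protein of the piRNA pathway, rose by 3.77 ± 0.24 (adjusted p = 3.79e-08), Igdcc3, an immunoglobulin superfamily receptor, by 3.72 ± 0.23 (adjusted p = 3.26e-08), Chst1, a carbohydrate sulfotransferase, by at least 10.4-fold, and Serpinf1, the secreted factor PEDF, by at least 8.94-fold. All 12 leading rises were called higher than in EsrrbNeg as well, from 0.71 for Gbp2 to 3.37 for Serpinh1. Of everything tested 12.1% was called higher there. The 12 were chosen by their rise on the same EpiSC arrays, so a higher level than in EsrrbNeg was partly fixed by that choice.

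Among the leading falls, Ooep, a protein of the subcortical complex of the oocyte, read 11.45, 11.28 and 11.39 in EsrrbHi and 5.05, 6.78 and 4.76 in EpiSC (−5.80 ± 0.43, adjusted p = 1.38e-07). Ooep stood 4.31 below EsrrbNeg, where it read 10.07, 9.86 and 9.70. Lgals3 (galectin-3), a sugar-binding protein, read 10.15, 10.14 and 9.98 against 5.85, 5.81 and 5.88 and fell by 4.23 ± 0.10 (adjusted p = 1.86e-11). In contrast to Ooep, Lgals3 differed from EsrrbNeg by −0.31 and was not called.

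Also among the leading falls were Mreg (melanoregulin, an organelle transport protein, −4.65 ± 0.20, adjusted p = 1.33e-09), Mylpf (a fast muscle myosin light chain, −4.55 ± 0.24, adjusted p = 9.43e-09) and Fabp3 (a fatty acid binding protein, −4.43 ± 0.15, adjusted p = 2.82e-10). Cpsf4l and Fam25c fell by 4.69 ± 0.13 and 4.39 ± 0.16. In every one of these the highest EpiSC array lay more than 3 log2 units below the lowest EsrrbHi array.

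**Figure D4:**
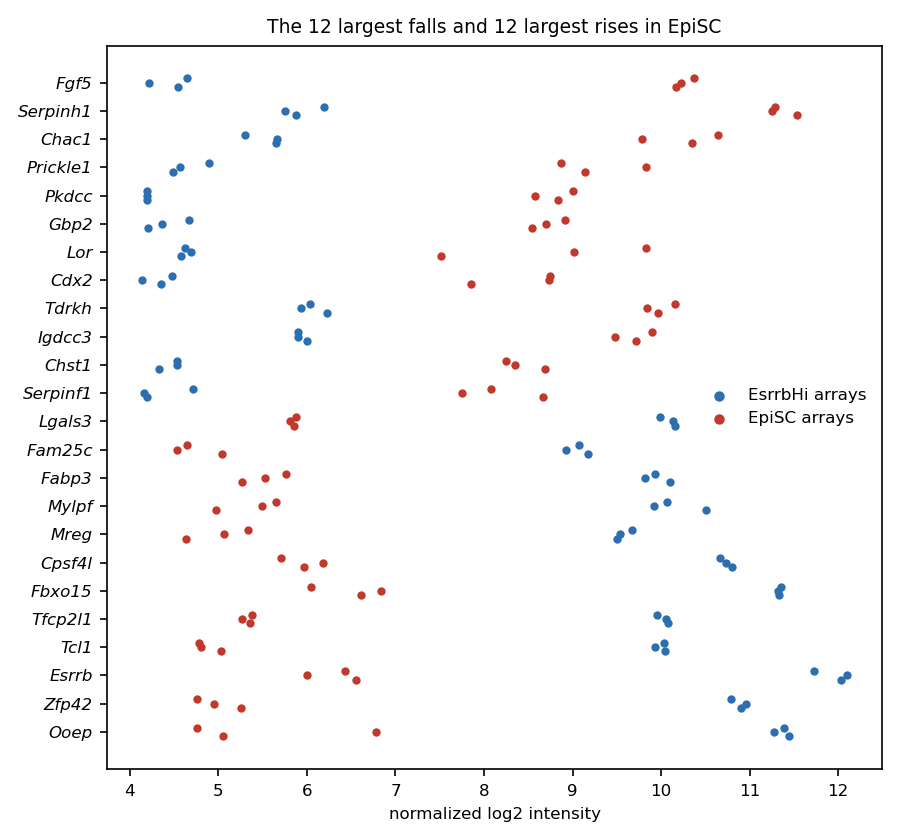
Normalized log2 intensity (horizontal axis) of the 12 genes with the largest rise and the 12 with the largest fall in EpiSC, 1 gene per row, with blue points for the 3 EsrrbHi arrays and red points for the 3 EpiSC arrays. The groups lie apart in every row, and the EpiSC arrays are widest for Lor (7.52 to 9.83) and Ooep (4.76 to 6.78).

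Genes of the signals in the culture media moved in both directions. LIF acts through its receptor subunit gp130 and JAK kinases on STAT3, which drives several naive factors. Of 16 genes of this list measured, 9 fell and 3 rose, against 14.9% and 18.5% of everything tested, with a median of −0.94. Stat3 read 7.91, 8.13 and 8.29 in EsrrbHi and 7.14, 7.09 and 6.94 in EpiSC and fell by 1.21 ± 0.11 (adjusted p = 7.81e-07), and EsrrbNeg stood 1.12 above EpiSC. Bcl3, an NF-kappaB cofactor and STAT3 target, read 6.83, 6.85 and 6.75 in EsrrbHi and was undetected in EpiSC at 4.24 to 4.55, at least 4.57-fold lower. Gfpt2, an enzyme of hexosamine synthesis, fell by 2.26 ± 0.15 (adjusted p = 6.10e-08).

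FGF ligands signal through receptors and ERK, whose activity induces its own inhibitors. Of 16 such genes 9 rose and 4 fell, against 18.5% and 14.9% of everything tested. Their median was 0.99, or 0.46 over all members with a probe. Beside Fgf5 and Fgf8, which rose, Fgf17 read 9.28, 9.12 and 8.76 in EsrrbHi and 5.78, 5.87 and 6.10 in EpiSC and fell by 2.90 ± 0.16 (adjusted p = 1.32e-08). The ERK phosphatase Dusp4 read 6.21, 6.71 and 7.04 against 9.07, 9.46 and 9.48 and rose by 2.45 ± 0.16 (adjusted p = 6.17e-08). Among serum and immediate early genes, which ERK and serum response factor induce within minutes, 12 of 17 rose and none fell, with a median of 1.00.

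The immediate early factors were spread among EpiSC arrays. Fos read 4.75, 4.93 and 5.09 against 7.06, 8.78 and 6.92 (2.34 ± 0.43, adjusted p = 0.000405) and Egr1 8.70, 9.24 and 8.68 against 10.36, 11.76 and 11.02 (2.12 ± 0.35, adjusted p = 0.000185), both highest in EpiSC replicate 2. Jun, undetected in EsrrbHi, was also highest there, at 6.53 against 5.55 and 5.80, and was at least 2.25-fold higher. The matricellular gene Ccn1 rose by 1.47 ± 0.19 (adjusted p = 2.37e-05).

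Activin and Nodal signal through SMAD2 and SMAD3 and induce their own antagonists. Of 14 genes 5 rose and 2 fell, against 18.5% and 14.9% of everything tested. Their median was 0.43, or 0.28 over all members with a probe. Fst (follistatin), which binds activin, read 4.39 to 4.59 in EsrrbHi, undetected, and 7.74, 9.03 and 8.42 in EpiSC, at least 8.10-fold higher (3.43 ± 0.38, adjusted p = 5.42e-06). Lefty1, a Nodal antagonist, read 9.01, 9.16 and 9.14 against 11.71, 11.37 and 10.80 and rose by 2.14 ± 0.26 (adjusted p = 1.15e-05). The convertase Furin rose by 2.25 ± 0.18 (adjusted p = 2.43e-07) and the transducer Smad3 by 1.85 ± 0.11 (adjusted p = 2.02e-08), whereas the convertase Pcsk6 fell by 1.48 ± 0.16 (adjusted p = 4.12e-06).

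In the BMP branch 7 of 11 genes rose and 2 fell, against 18.5% and 14.9% of everything tested. Only 1 of the 2 falls was called without EsrrbHi replicate 3, EpiSC replicate 1 or EpiSC replicate 3. The ligand Bmp4 read 9.10, 9.04 and 8.73 in EsrrbHi and 7.22, 5.87 and 6.07 in EpiSC and fell by 2.59 ± 0.30 (adjusted p = 8.90e-06), at 0.08 from EsrrbNeg. Another ligand, Bmp7, rose by 1.54 ± 0.16 (adjusted p = 2.33e-06), as did the antagonist Chrd (chordin, 2.22 ± 0.21, adjusted p = 1.11e-06), the receptor Bmpr2 (1.34 ± 0.14) and the homeobox target Msx1 (at least 2.33-fold). The Id genes of the list, named after their values were seen, gave −0.70 for Id2, the other fall, and −0.56 for Id1 and −0.13 for Id3, which were not called.

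Of 16 Wnt genes 7 rose and 4 fell, against 18.5% and 14.9% of everything tested. Their median was 0.21, or 0.07 over all members with a probe. Among receptors Fzd10 rose by 2.00 ± 0.32 (adjusted p = 0.000138) and Fzd5 fell by 1.64 ± 0.11 (adjusted p = 5.05e-08). Notum, the secreted enzyme that inactivates Wnt ligands, read 8.18, 8.14 and 8.34 in EsrrbHi and 4.583, 5.055 and 5.004 in EpiSC and fell by 3.37 ± 0.15 (adjusted p = 1.75e-09). Against EsrrbNeg, Notum gave −0.27 (adjusted p = 0.152) and was not called.

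Antigen presentation genes were mostly higher in EpiSC than in EsrrbHi. Class I molecules carry peptides made by the immunoproteasome to the cell surface together with B2m, and most of these genes are induced by interferon. Of 27 such genes 23 were measured, 15 rose and 4 fell, with a median of 1.18. Undetected on every EsrrbHi or every EpiSC array were 9 of the 23. Gbp2, an interferon-inducible GTPase, read 4.20, 4.36 and 4.67 in EsrrbHi, undetected, and 8.54, 8.70 and 8.91 in EpiSC, at least 13.1-fold higher (4.08 ± 0.19, adjusted p = 3.49e-09). B2m read 6.99, 6.64 and 6.72 against 8.91, 8.67 and 8.64 and rose by 1.97 ± 0.17 (adjusted p = 5.84e-07).

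The class I genes H2-T23 (2.52 ± 0.24, adjusted p = 1.65e-06) and H2-Bl (2.67 ± 0.29, adjusted p = 4.00e-06) rose too, and near-identical family members may share their probes. Bst2 (tetherin), whose promoter stretch is shown above, rose by 2.38 ± 0.20 (adjusted p = 5.08e-07). In the opposite direction, Ifitm1, an interferon-inducible membrane protein also expressed in ESCs and germ cells, read 12.84, 12.98 and 12.98 in EsrrbHi and 9.75, 10.17 and 9.65 in EpiSC and fell by 3.06 ± 0.15 (adjusted p = 3.99e-09). Over the whole list 9 genes were called higher and 3 lower in EpiSC than in EsrrbNeg, where 12.1% of everything tested was called higher and 8.96% lower. The list median was 0.08 for EpiSC minus EsrrbNeg and 0.97 for EsrrbNeg minus EsrrbHi, in comparisons that share arrays.

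Stress and amino acid response genes were more often called higher than lower. Of 23 measured, 11 rose and 4 fell, where 18.5% of everything tested was called higher and 14.9% lower, with a median of 0.49, or 0.27 over all members with a probe. Chac1, an enzyme that breaks down glutathione and a target of ATF4, read 5.65, 5.66 and 5.30 in EsrrbHi and 10.35, 9.79 and 10.64 in EpiSC and rose by 4.49 ± 0.45 (22.5-fold, adjusted p = 2.01e-06). Ddit4 (REDD1), an inhibitor of mTORC1, read 6.12, 6.47 and 6.75 against 10.25, 10.22 and 9.66 and rose by 3.46 ± 0.23 (adjusted p = 6.17e-08).

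Also risen were the factor Atf5 (1.98 ± 0.22, adjusted p = 5.58e-06) and Herpud1, a protein of endoplasmic reticulum degradation (1.78 ± 0.17, adjusted p = 1.21e-06). Hspb1 (HSP27), a small heat shock protein, fell by 2.09 ± 0.17 (adjusted p = 2.69e-07). Of 13 p53 targets 5 rose and 1 fell, against 18.5% and 14.9% of everything tested. The rises were led by the cell cycle inhibitor Cdkn1a (p21), which read 5.88 to 5.91 in EsrrbHi and 7.93, 8.23 and 7.57 in EpiSC (1.90 ± 0.18, adjusted p = 1.26e-06). The cell cycle list, beside the same shares, held 3 risen and 2 fallen genes among 24 (4 fallen without EsrrbHi replicate 3). Ccnd2 (cyclin D2) was up by 1.32 ± 0.24 (adjusted p = 0.000434) and Ccne1 (cyclin E1) down by 0.89 ± 0.10 (adjusted p = 6.83e-06).

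Metabolic genes split by pathway. Cholesterol synthesis and uptake genes, which SREBP factors induce when sterols are scarce, rose in 13 of 16 and fell in none, with a median of 1.10. The sterol oxidase gene Msmo1 read 7.92, 7.58 and 7.73 in EsrrbHi and 9.70, 10.02 and 9.88 in EpiSC and rose by 2.03 ± 0.18 (adjusted p = 8.88e-07). The demethylase Cyp51 rose by 1.43 ± 0.17 (adjusted p = 1.09e-05), the final reductase Dhcr7 by 1.41 ± 0.16 (adjusted p = 6.19e-06), the sterol carrier Stard4 by 1.42 ± 0.13 (adjusted p = 7.81e-07) and the desaturase Scd2, of fatty acid synthesis, by 2.24 ± 0.27 (adjusted p = 1.11e-05).

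Few oxidative phosphorylation genes were called, with 0 risen and 1 fallen of 27 and a median of −0.08, and the gene that fell was Stat3, which is no subunit of a respiratory complex. Of 18 glycolysis genes 3 rose and 1 fell, against 18.5% and 14.9% of everything tested. Called higher were 7 without EpiSC replicate 1, 5 without EsrrbNeg replicate 2 and 2 without EpiSC replicate 2. Isoforms moved apart, with Pfkm, the muscle phosphofructokinase, up by 1.19 ± 0.11 (adjusted p = 1.17e-06), Pfkp, the platelet form, down by 1.29 ± 0.19 (adjusted p = 8.14e-05) and the aldolase Aldoc up by 1.22 ± 0.26 (adjusted p = 0.00123). Of 11 housekeeping genes B2m alone was called, and 2 were called higher without EsrrbHi replicate 3 or EpiSC replicate 1.

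Genes of DNA methylation, both enzymes and associated proteins, fell or were not called. Of 11 measured, 5 fell and none rose, and 1 was called higher without EsrrbHi replicate 3 or EpiSC replicate 3. The methyltransferases Dnmt1 (−0.26, named after its values were seen) and Dnmt3b (0.49) were not called. Dnmt3l, the cofactor of the de novo methyltransferases, read 12.83, 13.10 and 12.90 in EsrrbHi and 10.61, 10.42 and 9.91 in EpiSC and fell by 2.48 ± 0.17 (adjusted p = 9.49e-08). Tet1, the dioxygenase that oxidizes methylcytosine, read 10.40, 10.28 and 10.00 against 7.64, 7.73 and 6.80 and fell by 2.58 ± 0.22 (adjusted p = 5.30e-07). Both stood below EsrrbNeg as well, by 2.23 and 1.58. Mbd3, a subunit of the NuRD complex, fell by 0.89 ± 0.15 (adjusted p = 0.000204) and Gadd45a by 0.92 ± 0.10 (adjusted p = 6.09e-06). Gadd45b fell by 0.62 ± 0.22 (adjusted p = 0.0272), but lost its call without any of EsrrbHi replicate 3, EsrrbNeg replicates 2 or 3 or EpiSC replicates 2 or 3, with values down to −0.37, and its other, dim probe gave 0.11 and was not called.

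Germline genes that are silenced by promoter methylation in somatic cells fell in 5 of 6 measured, of 24 listed. Undetected on every EsrrbHi or every EpiSC array were 5 of the 6. Members not detected throughout any group were left out, so the share that fell was partly fixed by the filter. Over all members with a probe, detected or not, the median was −0.04, against −1.20 over those measured. The X-linked homeobox gene Rhox9 read 7.99, 7.62 and 7.93 in EsrrbHi and was undetected in EpiSC at 4.40 to 4.57, at least 9.12-fold lower (−3.33 ± 0.20, adjusted p = 2.83e-08). Its neighbour Rhox6 was at least 2.70-fold lower. Tex19.1, a protein that restrains retrotransposons, read 9.51 to 9.59 in EsrrbHi and 7.21 to 7.58 in EpiSC and fell by 2.15 ± 0.14 (adjusted p = 3.79e-08). Dazl (at least 1.17-fold) and Piwil2 (at least 1.43-fold) lost their calls without EsrrbHi replicate 3, which left 3 of the 5 falls.

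Imprinted genes, expressed from a single parental allele and often growth regulators, moved one by one. Of 15 measured, 7 rose and 3 fell, against 18.5% and 14.9% of everything tested, with a median of −0.02. The growth factor gene Igf2 read 7.82, 7.77 and 8.33 in EsrrbHi and 12.09, 10.84 and 11.25 in EpiSC and rose by 2.84 ± 0.39 (adjusted p = 3.62e-05). The growth inhibitors Grb10 and Cdkn1c rose by 2.19 ± 0.13 (adjusted p = 2.10e-08) and 1.48 ± 0.12 (adjusted p = 4.66e-07), though the other, dim probe of Grb10 gave 0.56 and was not called. Mest, a hydrolase-like protein, read 7.72, 7.37 and 7.81 against 4.996, 5.578 and 4.215 and fell by 2.76 ± 0.30 (adjusted p = 4.47e-06). Mest differed from EsrrbNeg by −3.04 and EsrrbNeg from EsrrbHi by 0.28, in comparisons that share arrays.

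Adhesion and matrix genes changed in kind. Among cadherins, claudins and genes of the epithelial to mesenchymal transition, 7 of 19 rose and 4 fell, against 18.5% and 14.9% of everything tested. The tight junction gene Cldn4 read 8.96, 9.34 and 9.19 in EsrrbHi and 6.29, 6.52 and 5.95 in EpiSC and fell by 2.87 ± 0.17 (adjusted p = 2.11e-08), and the cadherin gene Cdh3 fell by 1.24 ± 0.14 (adjusted p = 8.47e-06). Pcdh1, a protocadherin undetected in EsrrbHi, was at least 3.86-fold higher, and Twist1, a mesenchymal factor also undetected there, at least 2.15-fold higher.

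In the matrix list 8 of 19 fell and 6 rose, against 14.9% and 18.5% of everything tested. Their median was −0.47, or −0.10 over all members with a probe. The laminin gene Lama1, described above, read 8.744, 8.996 and 8.633 in EsrrbHi and 5.43, 5.28 and 4.97 in EpiSC. The basement membrane linker Nid1 (nidogen) fell by 2.13 ± 0.22 (adjusted p = 2.35e-06) and the proteoglycan Hspg2 (perlecan) by 1.81 ± 0.16 (adjusted p = 7.48e-07), while the basement membrane collagen Col4a2 rose, as given above. The integrin subunit Itga3 rose by 1.55 ± 0.23 (adjusted p = 7.61e-05), and Tnc (tenascin C), undetected in EsrrbHi, was at least 1.98-fold higher and highest in EpiSC replicate 1 (6.78, against 5.49 and 5.83).

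**Figure D5:**
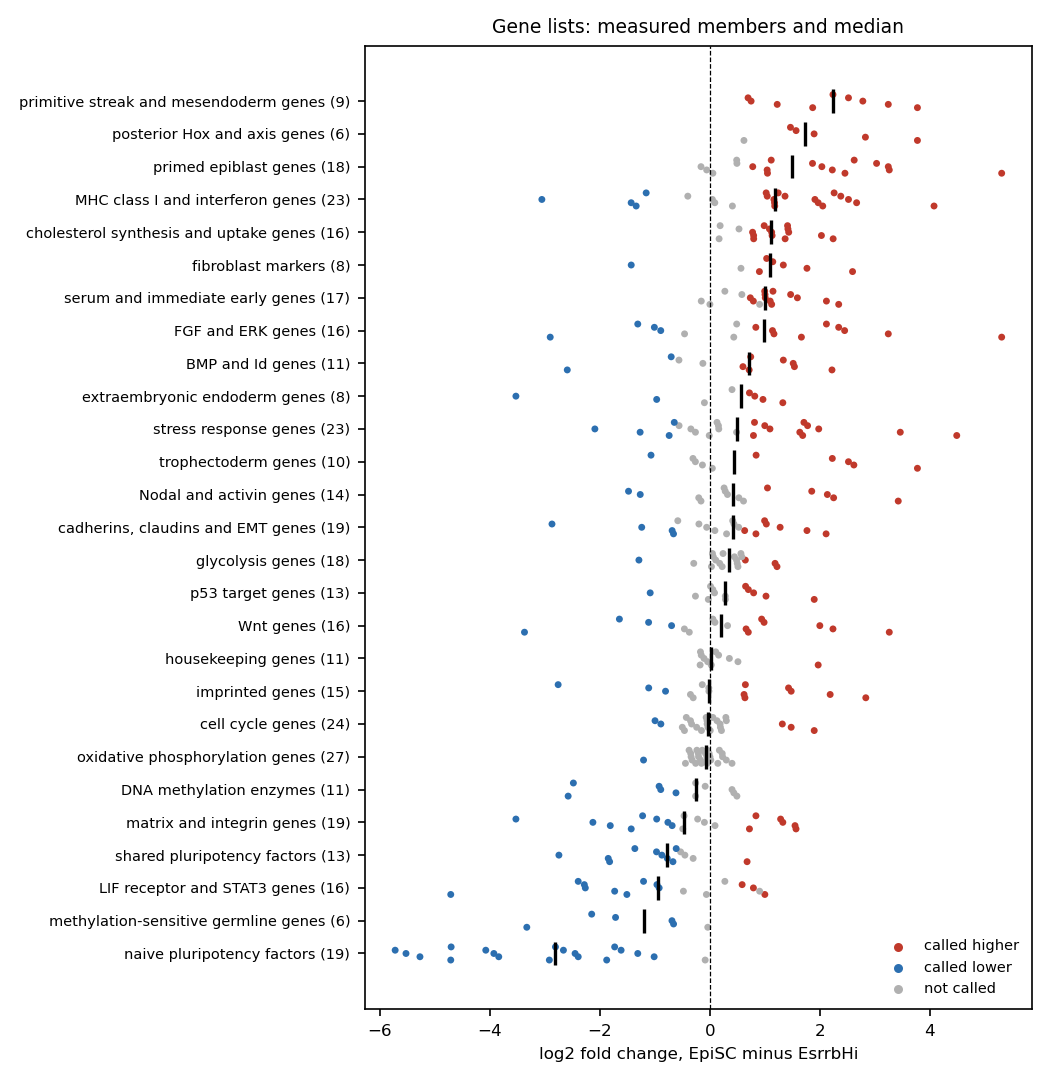
Log2 fold change of EpiSC minus EsrrbHi (horizontal axis) for every measured member of each gene list with at least 5 measured members (rows, with the number measured), red where called higher, blue where called lower and grey where not called. Black bars mark list medians and the dashed line the median of everything tested (0.01). Medians over measured members run from −2.81 for naive factors to 2.24 for primitive streak genes, which is 0.55 over all members with a probe.

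Few neural genes were measured. Of 19 listed 3 passed the filter, of which the intermediate filament gene Nes was at least 5.54-fold higher in EpiSC (2.66 ± 0.20, adjusted p = 1.99e-07) and Sox21, a Sox factor also expressed in ESCs, read 8.75, 8.42 and 7.87 against 6.56, 6.82 and 6.34 and fell by 1.67 ± 0.23 (adjusted p = 4.23e-05). Eif1a, the 1 measured gene of a list of 2-cell stage genes, gave −0.40 ± 0.11 and was not called.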

How the data were processed

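The authors hybridized 100 ng of RNA per sample, labelled with an Illumina TotalPrep kit, and deposited bead summary intensities without background correction, a detection p-value per probe and array, and a log2 table that was quantile normalized and batch corrected with ComBat in R (beadarray, limma and sva, versions not given in the sources used here). Here the deposited intensities of all 12 arrays were background corrected with normexp from the detection p-values and quantile normalized (limma 3.58.1 neqc, offset 16, R 4.3.3). Of 45281 probes, 14834 with a detection p of at most 0.01 on all 3 arrays of a group were kept. The brightest probe stood for each gene, giving 8487 named genes and 2602 unnamed probes. Symbols came from the platform annotation, updated through RefSeq (GRCm38.p6) gene IDs, of which 99.82% were found.

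All groups and chip entered 1 limma fit (residual 7 and prior 6.08 degrees of freedom), with Benjamini-Hochberg adjustment over 11089 tests. The study calls its experiments independent while the labels name no cultures, so p-values cover the spread between these samples. The precision is limited by 3 arrays per group. Named were the 12 largest rises and falls among called genes whose arrays did not overlap, Esrrb, Nanog, Pou5f1 and Sox2, cell type markers, and from each list the 5 called genes with the largest change or, with none called, the gene with the highest mean. The members and lists were chosen with earlier results of these data known. Lower bounds compare chip-corrected means with, per array, the higher of the gene's value and the lowest detected signal. Replicate numbers did not pair EpiSC with EsrrbHi (correlations of their deviations from the group means 0.02, −0.02 and 0.00). Alternatives covered normalization, filter, probe choice, chip, replicate block and each array left out. The probes of 6 genes (Adap1, Atl3, Gstcd, Med20, Tpi1 and Wdr33) were called in opposite directions.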

Additional observations from a re-analysis of the deposited data

How the results depend on the processing

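The 132 genes named by size of change, as core factors or as leading list members all kept their direction under 27 alternatives. Of 3564 such values 98, of 20 genes, lost the call. Other genes named here, such as Klf2, Otx2, Zic2, Dnmt3b, Dppa3 and Dppa5a, were not checked one by one under the alternatives. Of the count of 3707 genes called (2053 higher, 1654 lower), an offset of 50 left 2339 (1288 and 1051), quantile normalization without background correction 1735 (951 and 784), the deposited log2 values 1647 (906 and 741), and the same values with no chip term, an alternative added after seeing the data, 1670 (921 and 749). The deposited values covered fewer genes (9990 tested), and the cause of the lower counts was not tested otherwise. Every other alternative gave between 3398 and 3989. Median scaling turned the majority around, with 1589 higher and 1809 lower (46.8% higher, against 55.4%). With an offset of 50, quantiles alone and the deposited values, in that order, the rises called fell to 3, 2 and 2 of 6 on the fibroblast list, to 4, 2 and 2 of 7 on the BMP list, to 4, 3 and 3 of 7 on the Wnt list, to 4, 2 and 3 of 7 on the cadherin list, to 4, 4 and 4 of 7 on the imprinted list, to 4, 3 and 3 of 6 on the matrix list, to 3, 2 and 2 of 5 on the p53 list, and to 1, 1 and 0 of 3 on the LIF list, and the falls to 3, 3 and 3 of 5 on the germline list. Leaving out each of the 12 arrays in turn gave 3636 to 3862 called, 1993 to 2115 higher and 1623 to 1747 lower. Same-numbered samples were not paired in the data, and with a replicate block in place of the chip 3830 were called, and with a replicate block beside the chip 3989. Outside the 4 settings named first, 9 of the 132 genes lost a call under some alternative (Dcn, Dab2, Foxa1, Tnfrsf10b, Pdk3, Pou5f1, Gadd45b, Dazl and Piwil2). Only within those 4 settings, Bmp7, Msx1, Hoxb2, Thy1, Col4a2, Twist1 and Plk2 lost the call with quantiles alone and with both uses of the deposited values. Acta1 lost it in all 4, Jun in the quantile setting, Cdh3 in both uses of the deposited values and Rif1 in the use with no chip term. With a single EsrrbHi array on chip 2, values near the detection limit were the least certain.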
